A study of Arabidopsis thaliana with 3 samples.

Results

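The genes described here are those of endoplasmic reticulum chaperones and calreticulins. They were taken as the probe sets whose single platform gene symbol starts with CRT1, CRT3, CNX, BIP or PDIL. The rule found 2 of the 8037 probe sets with 1 gene symbol, CRT1b (locus AT1G09210) and PDIL5-1 (locus AT1G07960). Both had a signal on every array and passed the filter on low values. By locus code, 3 of the 21 Arabidopsis loci written down for these families had a probe set with 1 symbol, the third being AT5G07340, and the remaining loci are not analysed here. No genome build is named in the sources used here, so no coordinates are given.

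RNA was measured in lateral nectaries, the larger nectar glands at the base of the flower, of Arabidopsis thaliana Columbia-0 plants aged 30 to 35 days. The study compared 2 samples of cwinv4-1, a mutant in a cell wall invertase gene that the submitters call nectarless, with 1 wild-type sample. All 3 were dissected by hand from flowers at stages 14 to 15, pooled at roughly 250 to 300 nectaries a sample, and hybridised each to its own 1-colour Affymetrix array. Replicate 1 of the mutant is titled cwinv4-1a and replicate 2 cwinv4-1, and both are taken as the same line.

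The endoplasmic reticulum (ER) is where secreted and membrane proteins are folded. Calreticulin, a soluble lumen protein, and calnexin, its membrane-bound relative, bind newly made glycoproteins through their sugar chains and retain them until folded. BiP is the Hsp70 chaperone of the lumen and works with J-domain partners such as ERdj3, while protein disulfide isomerases form and rearrange disulfide bonds. When unfolded proteins accumulate, the sensors bZIP28 and bZIP17, freed by the proteases S1P and S2P, and bZIP60, whose messenger RNA is spliced by IRE1, raise transcription of such chaperones. Nectaries in the secretory stage export sugars and proteins.

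The values are linear MAS5 signals, and differences are given as log2 of a cwinv4-1 array over the wild-type array. The wild-type side of each comparison is the same single array, so the differences of both mutant arrays are not independent of each other. The arrays gave a signal for 11365 to 12455 of 14338 probe sets, with medians from 500.8 to 549.8. Replicate 2 stood apart: 20.7% of its probe sets had no signal, against 13.1% and 13.2% on the others, and over the 7750 probe sets tested its log2 difference from wild-type had an SD of 0.68, against 0.41 for replicate 1. Its 3′ to 5′ signal ratio was the highest of the 3 arrays in 5 of 6 control pairs. The mutated gene CWINV4 has no probe set with a single symbol here, and so its level could not be used to check the labels. Of 9 nectary markers, 2 were measured, SWEET9 and JMT, with summed signals of 28700 and 40468 on the mutant arrays and 31600 on wild-type. On replicate 2 they moved apart, SWEET9 at 38100 against 19700 in wild-type and JMT at 2368 against 11900. The 4 markers of other floral tissue with a signal on all arrays, out of 13 written down, summed to 18577 and 15584 on the mutant arrays and 20842 on wild-type, and none was at 0. Most of these sums is RCA and LHCB4.1. On replicate 2 the pollen gene AT3G07820 read 128.2 against 658 in wild-type, and SPT of the carpel 390.9 against 877.3. The part of other floral tissue in the values given here was not tested.

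CRT1b, a calreticulin, had a higher signal in both cwinv4-1 samples than in wild-type, whereas PDIL5-1, a protein disulfide isomerase-like gene, lay close to the wild-type signal in both. Neither passed the test across all probe sets. Of the other tested genes of folding in the ER lumen, ATERDJ3B and AT4G16660 were also above wild-type on both mutant arrays. Their log2 differences were 1.61 and 1.47 on replicate 2 and 0.71 and 0.06 on replicate 1, and neither passed the test. AT5G07340 came through the filter on low values only with replicate 2 included, and it is described on its own below. Genes of protein import, of the unfolded protein response and of ER-associated degradation had medians nearer to 0.

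CRT1b had a signal of 1330 in wild-type, 2147 in cwinv4-1 replicate 1 and 4866 in replicate 2. Both mutant samples thus lay above the wild-type one, replicate 2 much further than replicate 1. Among the probe sets with a signal on each array, ranked from the highest, CRT1b stood at rank 2944 of 12455 on wild-type, at 1763 of 12441 on replicate 1 and at 601 of 11365 on replicate 2, that is, within the top 23.6%, 14.2% and 5.29%. The ratio to wild-type was 1.61 in replicate 1 and 3.66 in replicate 2, and the mean of both was a 2.43-fold difference. On the log2 scale this was 1.28 (SE 0.45, 95% confidence interval 0.33 to 2.24, n = 2 and 1), with an unadjusted p of 0.0116 and an adjusted p of 0.419 in limma's moderated test over 7750 probe sets. It did not pass the threshold of 0.05 after Benjamini-Hochberg adjustment, which 0.426% of all tested probe sets did, 0.219% in the higher and 0.206% in the lower direction. In these bulk samples, more cells that express CRT1b and more of its RNA per cell cannot be told apart.

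**Figure D1:**
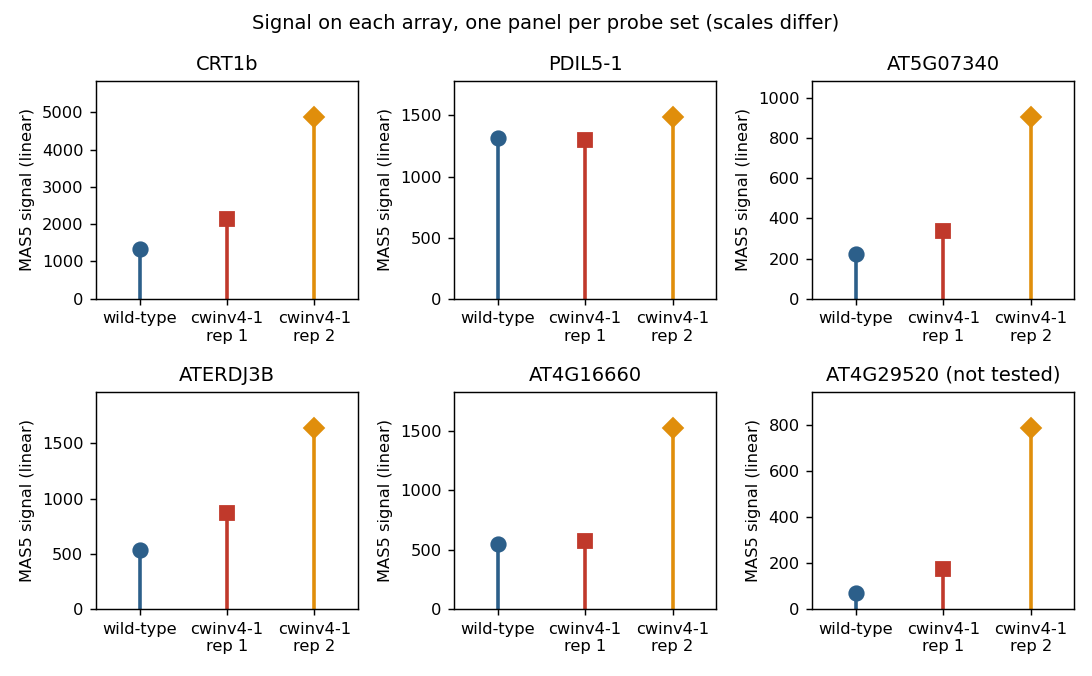
MAS5 signal (linear, axes from 0 and scaled separately for each probe set) on the wild-type array and on cwinv4-1 replicates 1 and 2, one point per array. CRT1b reads 1330, 2147 and 4866 in that order, PDIL5-1 stays between 1299 and 1485, and replicate 2 is the highest array in all 6 panels.

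The size of the CRT1b difference depended on the mutant sample, except under scaling to the hybridisation controls. Its log2 difference was 0.69 with replicate 1 alone and 1.87 with replicate 2 alone, and the gap between the mutant samples, 1.18, was larger than the difference between replicate 1 and wild-type. After quantile normalization the log2 difference was 0.70 in replicate 1 and 1.81 in replicate 2, and after median centring 0.71 and 1.76. Scaled to the hybridisation controls, it was 1.14 in both replicates. On that scale the median of all tested probe sets was 0.44 in replicate 1 and -0.82 in replicate 2. Taken over these medians, CRT1b was at 0.70 and 1.95. Ranked by the difference from wild-type, CRT1b was in the top 4.53% of tested probe sets on replicate 1 and in the top 1.14% on replicate 2, and on the mean of both it was 95th of 7750, in the top 1.23%. At least as far above wild-type on both arrays at once were 42 probe sets, CRT1b included. The GAPDH control read 4.81 times as bright at its 3′ end as at its 5′ end on wild-type, 2.87 times on replicate 1 and 11.2 times on replicate 2, and the part of RNA quality in the CRT1b value was not tested.

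PDIL5-1 had a signal of 1314 in wild-type, 1299 in replicate 1 and 1485 in replicate 2. The wild-type signal lay between those of the mutant samples, so the groups overlapped. Its ranks were 2976 of 12455 on wild-type, 2965 of 12441 on replicate 1 and 2404 of 11365 on replicate 2. The log2 difference was 0.08 (SE 0.37, limma adjusted p = 1.00), with a sign that turned when arrays were scaled to the hybridisation controls (-0.063). The 95% confidence interval ran from -0.71 to 0.87, which leaves room for anything between 0.61-fold and 1.83-fold. That interval overlaps the one for CRT1b, and the difference between the genes was not itself tested.

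AT5G07340, to which the gene table gives no other name and which was written under the calnexins by its locus code, had a signal of 221.8 in wild-type, 338.5 in replicate 1 and 903.6 in replicate 2. Both mutant samples lay above wild-type, in the same order as for CRT1b. The log2 difference was 1.32 (SE 0.50, 95% confidence interval 0.25 to 2.38, limma adjusted p = 0.511), made of 0.61 in replicate 1 and 2.03 in replicate 2. Its wild-type signal was dim, close to the 25th percentile of that array, 203.8. AT5G07340 came through the filter on low values only with replicate 2 included.

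ATERDJ3B, a J-domain partner of BiP, had signals of 536 in wild-type, 874.1 in replicate 1 and 1638 in replicate 2. The mutant samples were again both above wild-type. Its log2 difference was 1.16 (SE 0.43, limma adjusted p = 0.469), with 0.71 in replicate 1 and 1.61 in replicate 2. AT4G16660, written into the list of other ER folding genes by locus code, had signals of 549.7, 574.7 and 1524 in the same order. Replicate 1 hardly differed from wild-type there (log2 difference 0.06), and replicate 2 was at 1.47. Scaling to the hybridisation controls gave 0.51 and 0.74. On that scale the medians of all tested probe sets were 0.44 and -0.82, and AT4G16660 lay at 0.07 and 1.55 over them.

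AT4G29520, of the same list, had a signal of 72.5 in wild-type, 174.8 in replicate 1 and 788.5 in replicate 2. It was not tested, because its mean fell under the filter, and its signals on wild-type and replicate 1 lay below the 25th percentiles of those arrays, 203.8 and 192.8. Its ratios to wild-type, 2.41 and 10.9, rest on those dim signals. With no filter on low values it passed limma's test, at a log2 difference of 2.36 (SE 0.59, adjusted p = 0.0136), and CRT1b did not (adjusted p = 0.132). With a floor at a signal of 222, which both dim arrays lay under, its log2 difference was 0.91 (0.00 in replicate 1 and 1.83 in replicate 2) with an adjusted p of 1.00, and the remaining settings left it untested.

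Counted together, the ER lumen folding genes had 6 measured loci, of which 5 were tested. These were 3 of the 21 loci written down for the families of the rule and 3 of 16 for other ER folding, with no BIP gene among them. AT5G07340 is left out of the counts that follow, because its mean log2 signal of 8.67 passed the filter, which lay at 8.28, only with replicate 2 included (8.10 without it). Of the remaining 4, 3 were above wild-type on both mutant arrays, none was below on both, and PDIL5-1 had 1 array on each side. Over all tested probe sets 30.0% were above on both arrays, 37.2% below on both and 32.7% had 1 array above and 1 not. Because the lists were chosen with earlier results of these data known, the shares and medians set beside them describe and do not test. The median log2 difference of the 4 was 0.96, against -0.05 for all tested probe sets. An unadjusted limma p under 0.05 was reached by CRT1b and ATERDJ3B in the higher direction and by none in the lower. Of all tested probe sets, 3.47% reached it as higher and 3.02% as lower. None of the 4 passed after adjustment. With replicate 1 alone the median was 0.38, with 3 of 4 above wild-type but 0 at least 2-fold above. With replicate 2 alone it was 1.54, with 4 of 4 above and 3 at least 2-fold above. Of all tested probe sets, 48.6% and 44.1% were above wild-type on replicates 1 and 2, and 1.73% and 4.93% were at least 2-fold above.

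**Figure D2:**
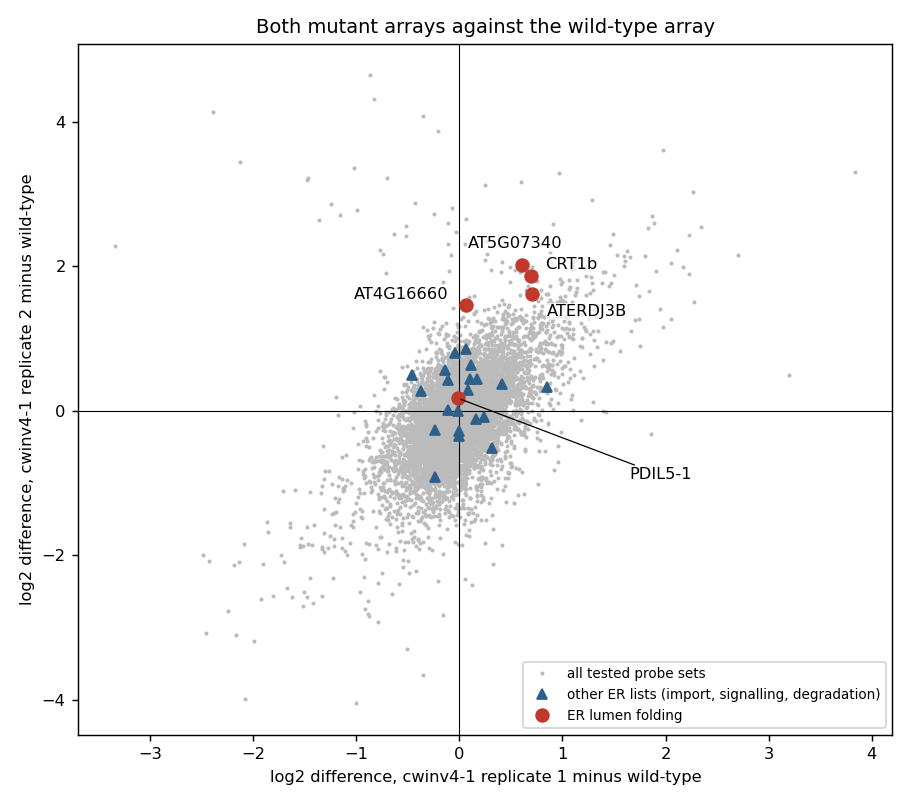
Log2 difference from wild-type of cwinv4-1 replicate 1 (x axis) and replicate 2 (y axis) for all 7750 tested probe sets (grey), the 5 tested ER lumen folding genes (red circles) and the tested genes of the other ER lists (blue triangles). CRT1b, AT5G07340 and ATERDJ3B lie together at the upper right, at 0.61 to 0.71 on x and 1.61 to 2.03 on y, while PDIL5-1 lies near the centre. AT5G07340 came through the filter on low values only with replicate 2 included.

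Genes that bring proteins into the ER and add their first sugar chains had 14 measured probe sets for 13 of 27 loci written down. Of these probe sets 12 were tested. Of the 12, 5 were above wild-type on both mutant arrays and 2 below on both, and 0 passed in either direction. Over all tested probe sets 30.0% were above on both, 37.2% below on both and 0.426% passed. Their median log2 difference from wild-type came to 0.11 on replicate 1, 0.19 on replicate 2 and 0.12 over both. ATERDJ2A, a J-domain protein of the import channel, had signals of 1476 in wild-type, 1650 in replicate 1 and 1368 in replicate 2, so that wild-type lay between the mutant samples. Its log2 difference was 0.03, and below 0 under median centring (-0.02) and under scaling to the hybridisation controls (-0.12). The others named, by their brightness, are known here by locus code only: AT2G34250 had a log2 difference of 0.31, AT1G52600 of 0.37, AT2G01720 of 0.27, AT2G21160 of -0.05 and AT3G20920 of 0.08, the last below 0 under scaling to the hybridisation controls (-0.07). The largest value among the 12 was 0.46 and the smallest -0.25. Both probe sets of AT3G48570 were measured and disagreed in sign, at 0.16 and -0.10.

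Of 12 loci written down for signalling in the unfolded protein response, 5 were measured and 4 tested. Of the 4, 0 passed or lay on the same side of wild-type on both mutant arrays. Over all tested probe sets 0.426% passed and 32.7% did not lie on the same side on both. BZIP60 had signals of 3322 in wild-type, 3222 in replicate 1 and 5792 in replicate 2, so that replicate 2 alone stood apart, and its log2 difference was 0.38 (SE 0.43, limma adjusted p = 1.00). The deposited signal is for the whole probe set and does not separate spliced from unspliced BZIP60. BZIP28 had signals of 1836 in wild-type and in replicate 1 and of 1507 in replicate 2. BZIP17 had 633.2 in wild-type, 460.3 in replicate 1 and 889.1 in replicate 2, and S1P, the protease that cleaves these factors in the Golgi, 934.8, 723.5 and 1135 in the same order. In BZIP17 and S1P the wild-type value lay between the mutant ones. Their log2 differences were 0.01, which was below 0 under median centring and scaling to the hybridisation controls, and -0.04.

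ER-associated degradation, which returns misfolded proteins to the cytosol for destruction, had 5 measured genes of 11 loci written down, and all 5 were tested. Of these, 2 were above wild-type on both arrays and 1 below on both, and again 0 passed. Over all tested probe sets the shares were 30.0%, 37.2% and 0.426%. DER1, a derlin of the machinery that exports misfolded proteins, had signals of 664.7 in wild-type, 1195 in replicate 1 and 837.2 in replicate 2, a log2 difference of 0.59 (SE 0.40, limma adjusted p = 1.00) and the only one of the 5 whose larger difference was in replicate 1. DER2.2, another derlin, had 2120 in wild-type, 1795 in replicate 1 and 1125 in replicate 2, a log2 difference of -0.58. Both mutant samples were above wild-type for DER1 and below it for DER2.2. DER2.1 was at 0.19, OS9, a lectin that recognises misfolded glycoproteins, at 0.21, and UBC32, a ubiquitin-conjugating enzyme of the ER membrane, at -0.17.

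Cytosolic chaperones and their partners were set beside the ER genes. Of 16 loci written down, 4 were measured and 2 tested. AT3G09440 had a log2 difference of 0.10, which was -0.04 under scaling to the hybridisation controls, and Hop3, an Hsp70 and Hsp90 co-chaperone, of -0.23. The untested ones were dim. AT5G48570, which the gene table also lists as ROF2, had signals of 211.2 in wild-type, 49.6 in replicate 1 and 112 in replicate 2, and AT1G53540 had 91.6, 68.6 and 91.9. In these 4 genes no mutant signal was more than 1.13-fold above wild-type. Neither of the 2 tested passed, where 0.426% of all tested probe sets did.

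**Figure D3:**
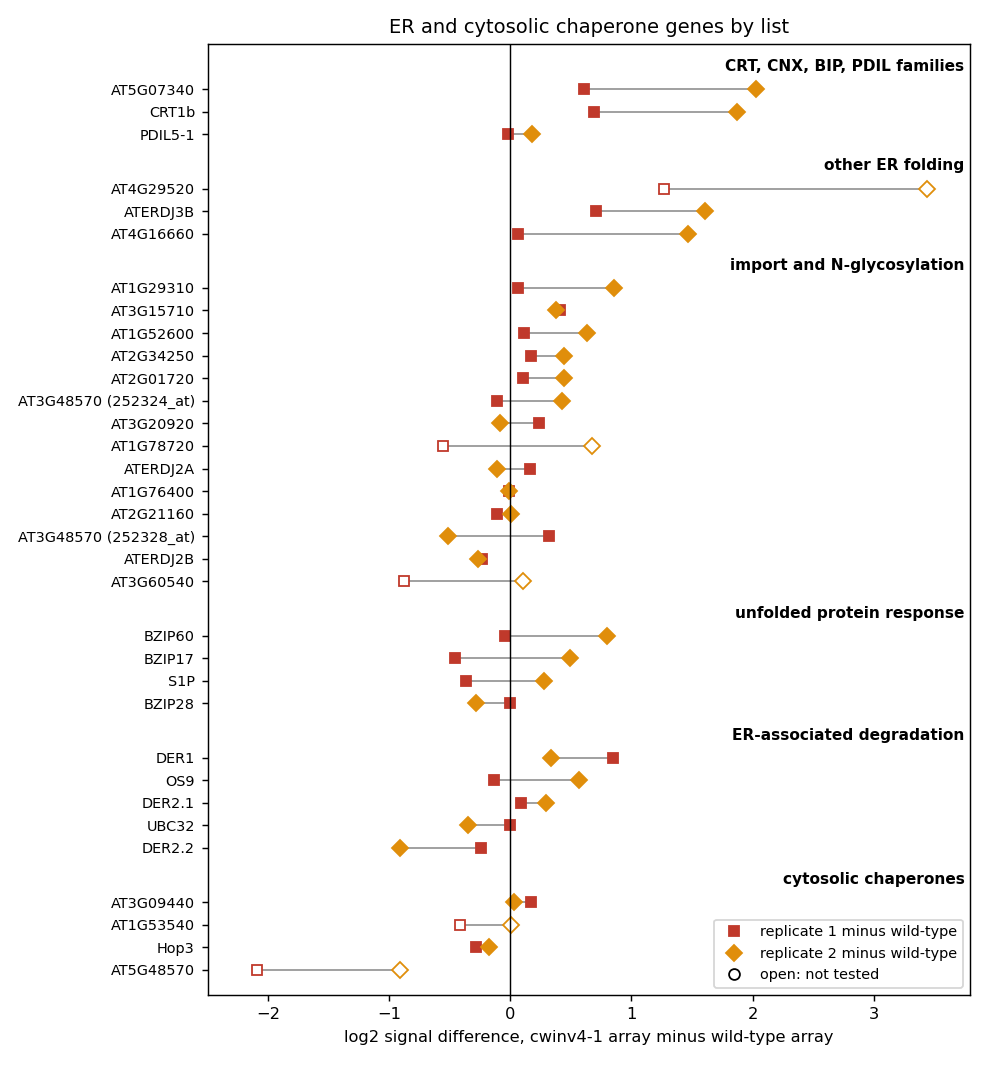
Log2 signal difference of cwinv4-1 replicate 1 (red squares) and replicate 2 (orange diamonds) from wild-type for every list gene with a signal on all arrays, grouped by list. Open symbols mark probe sets under the filter, which were not tested. In the 2 upper groups all genes but PDIL5-1 have both symbols to the right of 0, and in the groups under them most symbols lie within 1 of 0.

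Of the other 4018 tested probe sets with 1 gene symbol, the 5 nearest to CRT1b by the pair of log2 differences over the 3 arrays were AT5G44680, AT1G21560, AT4G24700, AT4G34630 and AT5G07340. The gene table gives none of them a name beyond its locus code. AT5G44680, the nearest at a distance of 0.07, had signals of 1860 in wild-type, 3091 in replicate 1 and 7082 in replicate 2. AT1G21560 followed at 0.11 (416.7, 626.3 and 1577 in the same order), AT4G24700 at 0.14 (905, 1438 and 3013) and AT4G34630 at 0.17 (540, 783.1 and 2079). AT5G07340, the calnexin by locus code, was the fifth at a distance of 0.18, and it was among the tested probe sets only with replicate 2 included. The 5 had log2 differences of 0.54 to 0.73 in replicate 1 and of 1.74 to 2.03 in replicate 2, close to those of CRT1b because they were picked for that. None of the 5 passed limma's test (adjusted p from 0.399 to 0.535).

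The CRT1b difference passed in none of the 9 other settings tried. Those of filter, floor and variance prior could not move its log2 value, which stayed at 1.28, and a pseudocount could not turn its sign. The sign could turn only under quantile normalization, median centring and scaling to the hybridisation controls, and it did not. Over the 9 settings the log2 value of CRT1b ranged from 1.14 to 1.28. Its limma adjusted p ran from 0.0696, with only the brighter 50% of probe sets tested, to 1.00. PDIL5-1 stayed between -0.063 and 0.089 in them.

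**Figure D4:**
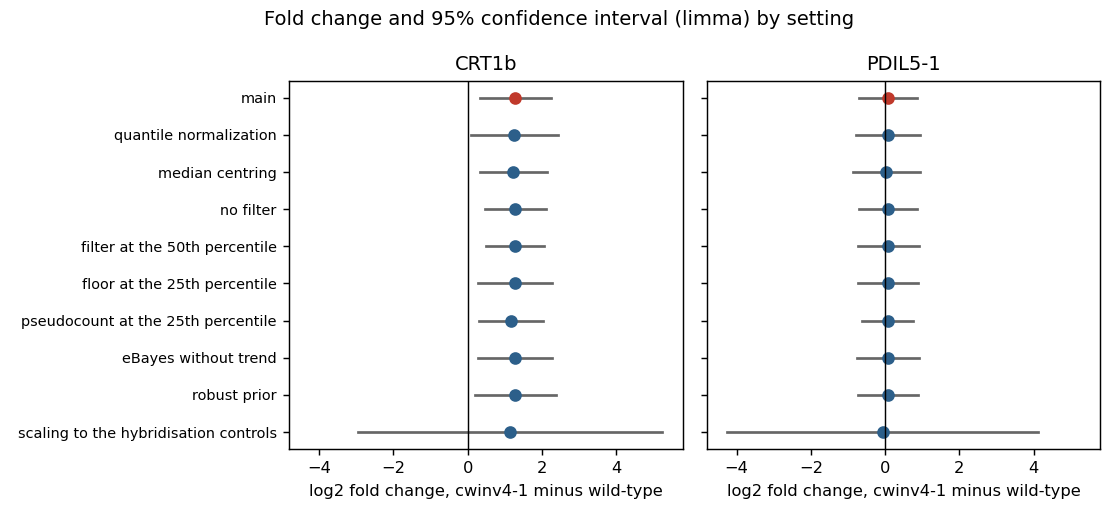
Log2 fold change of CRT1b (left) and PDIL5-1 (right) between 2 cwinv4-1 samples and 1 wild-type sample under each processing setting, with 95% confidence intervals from limma as bars; red marks the setting reported above and blue the others. CRT1b stays between 1.14 and 1.28, with an interval that includes 0 under scaling to the hybridisation controls alone, and PDIL5-1 stays near 0. The settings of filter, floor and variance prior cannot move either log2 value, only its interval.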

How the data were processed

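The deposited intensities are linear signals per probe set that the authors made with MAS5, per the submitters' processing notes; version, target level and the meaning of empty cells are not given in the sources used here. Per the design text, further wild-type nectary arrays, not used here, took part in the normalization.

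GEO's platform annotation gave the gene symbols, matched to the RefSeq gene table of TAIR10.1 (8000 of 8037 with 1 symbol matched a locus, 335 had several symbols and 5966 none). Signals were analysed as log2 without further normalization. Tested were those with no empty cell whose mean log2 value reached the 25th percentile, with limma 3.58.1 in R 4.3.3 (trended eBayes, two-sided, Benjamini-Hochberg over 7750 probe sets, threshold 0.05). With 1 residual and 15.4 prior degrees of freedom, the lone wild-type sample is assumed to vary like the mutant ones. The test was tested on simulated data in which all 3 arrays varied alike, so the simulation could not check that assumption. The spread behind the p-values comes from the 2 mutant samples and, through the prior, from other probe sets of these same samples. Precision is limited by having 3 arrays.

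Named were all members, up to 6 measured genes per list by mean signal, the measured tissue markers and the 5 nearest patterns. Members and lists were chosen with earlier results of these data known. Alternatives covered normalization, filter, floor or pseudocount at a signal of 222, the variance prior and each mutant array alone; scaling to the hybridisation controls was added after seeing the data.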

Additional observations from a re-analysis of the deposited data

Results flagged for a closer look

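The RNA quality controls were outside the test. For GAPDH, replicate 2 of cwinv4-1 had a 3′ over 5′ ratio of 11.2 where wild-type had 4.81, and with a further GAPDH pair the ratios were 2.44 and 1.38.

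AT4G20310, written into the unfolded protein response list by locus code, had a signal of 252.8 on cwinv4-1 replicate 1 and of 483.8 on replicate 2 and no value on the wild-type array, so it entered no test and has no fold. What an empty cell stands for is not given.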

How the results depend on the processing

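Over all probe sets limma called 33, with 17 higher and 16 lower. The count was 0 after quantile normalization (192 higher and 154 lower at an unadjusted p under 0.05), 0 with a floor (260 and 219) and 0 under scaling to the hybridisation controls (0 and 0). It was 95 with median centring, 126 with no filter and 90 with the filter at the 50th percentile; the cause was not tested. Neither CRT1b nor PDIL5-1 was called in any of these. Without 1 mutant replicate CRT1b ranged from 0.69 to 1.87, values with no test, and no count of calls can be had. Scaling to the hybridisation controls moved the median of all tested probe sets from -0.05 to -0.19. Under it the log2 differences of PDIL5-1 (-0.063), ATERDJ2A (-0.12), AT3G20920 (-0.068), BZIP17 (-0.13) and AT3G09440 (-0.042) turned below 0. Median centring did so for ATERDJ2A (-0.022) and BZIP17 (-0.0325), and quantile normalization for SWEET9 (-0.075). No paired analysis was possible because the groups share a single replicate number. AT5G07340 was left out by the filter at the 50th percentile. Wild-type signals of AT5G07340, near the 25th percentile of that array, and of AT4G29520, well below it, limit their folds.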

Other observations

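The hybridisation controls, transcripts of bacterial and phage genes measured by 18 control probe sets, differed between the arrays. Their median log2 difference from wild-type was -0.45 on cwinv4-1 replicate 1 (from -0.59 to -0.25) and 0.74 on replicate 2 (from -0.11 to 2.05). The amounts added are not given in the sources used here. Scaled to these controls, CRT1b had log2 differences of 1.14 in both replicates, AT5G07340 of 1.06 and 1.29, ATERDJ3B of 1.15 and 0.88 and AT4G16660 of 0.51 and 0.74. PDIL5-1 had 0.43 and -0.56. The same scaling put the median of all tested probe sets at 0.44 in replicate 1 and -0.82 in replicate 2. Relative to those medians CRT1b lay at 0.70 and 1.95, AT5G07340 at 0.62 and 2.11 and ATERDJ3B at 0.72 and 1.69. AT4G16660 lay at 0.07 and 1.55 and PDIL5-1 at -0.01 and 0.26.

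SWEET9, the sucrose exporter of nectaries, had signals of 16300 and 38100 on the mutant arrays and 19700 on wild-type. JMT had 12400 and 2368 against 11900. Of the markers of other tissues, the pollen gene AT3G07820 had 569.1 and 128.2 against 658, SPT of the carpel 767.7 and 390.9 against 877.3, LHCB4.1 of green tissue 7140 and 5208 against 8107, and RCA 10100 and 9857 against 11200. The pollen gene AT59 had 102.2 on replicate 1 and 62.8 on wild-type and no value on replicate 2.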
